A study of Drosophila melanogaster with 73 samples.

Results

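The 6 genes described here encode enzymes of the methionine cycle and of transsulphuration in Drosophila melanogaster: Sam-S, Gnmt, Sardh, Ahcy, Cbs and Cth. They were chosen for the step they catalyse, with earlier results of these data known. They were matched by symbol to the gene identifiers of the gut and fat body count tables. All 6 were found in both tables, which held 10366 gut and 11069 fat body genes, or 11419 genes in either. In the fat body all 6 passed the filter on low counts, which asked for 2 libraries at a set level. Sardh reached that level in 10 induced and 2 uninduced libraries with AopACT and in 0 libraries without it, so its uninduced libraries alone would have kept it, but those without AopACT would not. In the gut 5 passed, and Sardh, with 0 to 7 counts in a library, was not tested.

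In the methionine cycle, Sam-S (S-adenosylmethionine synthetase) turns methionine into S-adenosylmethionine, the methyl donor of most methylation reactions. Gnmt (glycine N-methyltransferase) spends S-adenosylmethionine on glycine and so makes sarcosine, which Sardh (sarcosine dehydrogenase) turns back into glycine, while Ahcy (adenosylhomocysteinase) hydrolyses the S-adenosylhomocysteine left by methylation to homocysteine. Homocysteine is either methylated back to methionine or leaves the cycle by transsulphuration, in which Cbs (cystathionine beta-synthase) joins it to serine and Cth (cystathionine gamma-lyase) splits the product into cysteine. In flies, Gnmt of the fat body is known to hold S-adenosylmethionine in check.

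The genes lie apart on the BDGP6 assembly, and all are annotated as protein coding. Sam-S spans chromosome 2L from 106903 to 114432, Gnmt spans 3R from 12674608 to 12676084, and Sardh spans 2R from 17753555 to 17756422. Ahcy spans X from 15450261 to 15453167, Cbs spans X from 21045138 to 21049096, and Cth spans 2R from 18627918 to 18629395. The end of Gnmt overlaps the antisense gene CG43630 (3R, 12676010 to 12676260). The sources used here do not say whether strand was used in counting, and Gnmt and CG43630 may share reads.

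Polyadenylated RNA came from guts and fat bodies of adult females of 7 genotypes, in an outbred Dahomey background with the w1118 mutation. Every genotype carried the S106 driver, whose GeneSwitch protein is activated by the drug RU486, with UAS transgenes for Foxo, for AopACT (an activated form of the ETS repressor Aop), for PntP1 (an ETS activator), for each pair of these, or for all 3. After 48 h of mating, induced flies were fed 200 µM RU486 for 6 days, and uninduced flies of the same genotypes were not given the drug. A library was a pool of organs, and fat body libraries were abdomens from which gut and reproductive organs had been taken out. No library came from flies with the driver alone, so within a genotype the transgene and the drug cannot be told apart. The genotypes without AopACT (Foxo, PntP1 and Foxo+PntP1) received the drug too.

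The gut had 36 libraries (19 uninduced, 17 induced) of 1598120 to 6145550 counts, and the fat body 34 (16 uninduced, 18 induced) of 1138812 to 8257766 counts. Groups held 2 or 3 libraries, except the uninduced Foxo+PntP1 gut, which had 1. Induced pnt was higher than uninduced pnt in every PntP1 group mean, although the uninduced Foxo+PntP1 fat body replicate 1 had 115 CPM (counts scaled to library size) of pnt. Gene foxo was higher on induction in the Foxo gut (345 against 66.4 CPM, group means) but not in the Foxo fat body (65.1 against 81.4 CPM), so the fat body libraries labelled as induced Foxo went against their label. The same held for the labels of Foxo+PntP1 (79.1 against 109 CPM) and Foxo+AopACT+PntP1 fat bodies (56.2 against 79.6 CPM), and these names are used below as labels. In Foxo+PntP1 and Foxo+AopACT+PntP1 guts the means of foxo were 81.1 and 76.9 CPM induced against 56.7 and 73.6 CPM uninduced. Gene aop was higher in every induced AopACT group mean, but reads of the transgene and of the resident gene are counted together. Without AopACT, mean aop also rose from 41.3 to 93.2 CPM in PntP1 guts and from 38.8 to 135 CPM in Foxo+PntP1 guts. In PntP1 fat bodies it rose from 49.6 to 82.2 CPM. It changed less in Foxo guts (38.0 to 46.1 CPM) and Foxo fat bodies (51.0 to 58.8 CPM). It fell in Foxo+PntP1 fat bodies (69.0 to 55.6 CPM). Summed fat body markers were 105 to 362 CPM in gut and 4409 to 22114 CPM in fat body libraries, and summed enterocyte markers were 1871 to 7505 and 23.6 to 353 CPM. Among the fat body markers apolpp was abundant in fat body libraries (2847 to 15333 CPM), Lsp2 was at 0 to 40.8 CPM and Fbp1 was not analysed here. The library numbered 2 is labelled induced Foxo+PntP1 in the gut and uninduced Foxo in the fat body, and the library numbered 5 the other way round. The fat body library numbered 5 had no counts, so in that tissue only the library numbered 2 could be left out. Leaving these libraries out changed no call of a member. Fat body libraries also held oenocyte markers (22186 to 92100 CPM summed) and ovary markers (19.5 to 3074 CPM summed).

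Without induction, the tissues differed in which enzyme was abundant. Levels per length are given as RPKM (reads scaled to exon length and library size). In the uninduced gut (n = 19 libraries) Cth stood at 63.1 ± 13.3 RPKM (SD) and Sam-S at 61.8 ± 13.3, followed by Ahcy at 10.3 ± 3.59, Cbs at 4.86 ± 3.02, Gnmt at 1.36 ± 1.39 and Sardh at 0.262 ± 0.261. Cth exceeded Sam-S in 10 of 19 gut libraries, so the order of these neighbours was not separated by their spread, and with the longest transcript as the length Cth exceeded Sam-S in 4 of 19. Sam-S exceeded Ahcy and Ahcy exceeded Cbs in all 19.

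In the uninduced fat body (n = 16 libraries) Sam-S led at 208 ± 38.5 RPKM. Gnmt (43.6 ± 27.4) exceeded Cth (38.2 ± 9.26) in 10 of 16 libraries and Cth exceeded Ahcy (26.5 ± 16.0) in 12 of 16, so the order in the middle rested on few libraries. Cbs was at 4.32 ± 3.77 and Sardh at 0.499 ± 0.933 RPKM. Against the other genes of the table, the median Sam-S level stood above 96.6% of fat body genes, and the median Cth level above 89.1% of gut genes.

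**Figure D1:**
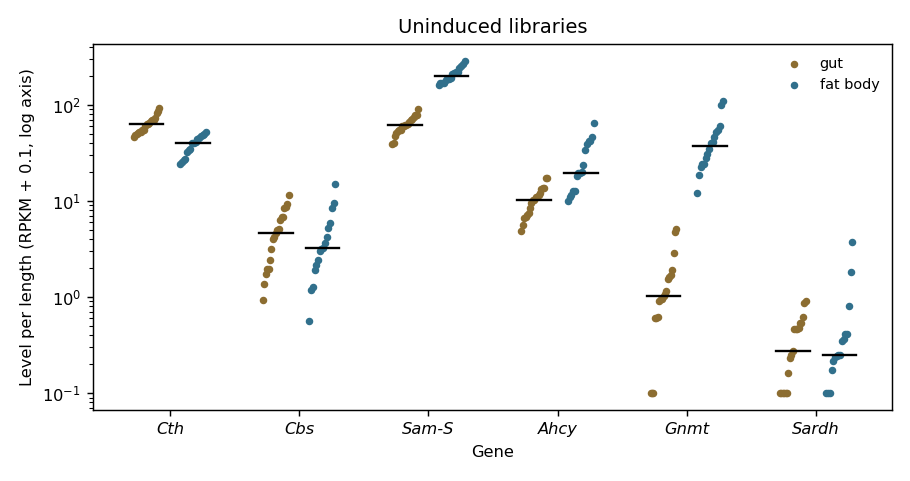
Levels of the 6 enzymes in uninduced libraries, in RPKM + 0.1 on a log axis, with 1 point per library and lines at the medians, for gut (19 libraries) and fat body (16 libraries). Cth and Sam-S are on top in the gut (63.1 and 61.8 RPKM on average), while Sam-S stands alone on top in the fat body (208 RPKM) and Gnmt is separated by tissue (1.36 against 43.6 RPKM).

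Across tissues, 5 of the 6 members differed in uninduced libraries by edgeR's quasi-likelihood test with Benjamini-Hochberg adjustment (called at an adjusted p under 0.1), where 74.7% of all 9610 genes tested differed. Cth was higher in the gut, by 1.12 ± 0.09 (SE) on the log2 scale (2.17-fold, edgeR adjusted p = 6.01e-13), and Cbs was higher in the gut by 0.78 ± 0.34 (edgeR adjusted p = 0.0446). Sam-S was 2.79-fold lower in the gut (log2 difference -1.48 ± 0.11, edgeR adjusted p = 7.19e-14) and Ahcy 1.92-fold lower (-0.94 ± 0.24, edgeR adjusted p = 8.64e-04). Gnmt was 25.2-fold lower in the gut (-4.65 ± 0.35, edgeR adjusted p = 1.50e-13), where its counts were 0 to 9 in an uninduced library. Sardh was low in both tissues, and its difference of -0.45 had an interval from -1.65 to 0.74. A share of 5 in 6 was near that of all genes. In bulk tissue, fewer cells of a type and less RNA per cell cannot be told apart.

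Gut Cth was called higher on induction in 3 of the 4 AopACT genotypes. In AopACT guts Cth was at 92.4, 77.5 and 101 CPM without induction and at 173 and 367 CPM with induction. The induced libraries were both above all uninduced ones, and the higher one, replicate 2, was well above the other. The log2 difference was 1.56 ± 0.33 (SE; edgeR adjusted p = 0.0351, where 0.291% of the 9270 genes tested were called). That call did not hold when any 1 of 4 libraries was left out: without uninduced replicate 1, 2 or 3 the difference was 1.55, 1.56 and 1.58 (edgeR adjusted p = 0.123, 0.218 and 0.192), and without induced replicate 2 it was 1.15 (edgeR adjusted p = 0.859). The same comparison gave 1.52 by limma voom (adjusted p = 0.127). Summed Malpighian tubule markers, of which 0 of 4 tested were called, were at 7.86 to 48.8 CPM in the uninduced and at 18.3 and 109 CPM in the induced AopACT libraries, and their part in the Cth response was not tested. Among all 9270 genes, induced libraries lay above all uninduced ones for 7.89% in AopACT guts, 17.9% in Foxo+AopACT, 5.99% in Foxo+AopACT+PntP1 and 5.45% in Foxo.

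In Foxo+AopACT guts Cth was at 101, 72.8 and 93.6 CPM uninduced and at 214 and 452 CPM induced. Again the groups did not overlap and induced replicate 2 was the higher library. The log2 difference was 1.80 ± 0.33 (edgeR adjusted p = 0.00551, with 2.13% of genes called), and without induced replicate 2 it was 1.16 (edgeR adjusted p = 0.305). In Foxo+AopACT+PntP1 guts Cth was at 76.7, 81.3 and 67.6 CPM uninduced and at 151, 162 and 384 CPM induced. All 3 induced libraries were above all 3 uninduced ones, and replicate 3 was the highest. The log2 difference was 1.57 ± 0.31 (edgeR adjusted p = 0.00498, with 1.64% of genes called), and it was 1.09 without induced replicate 3 (edgeR adjusted p = 0.101).

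AopACT+PntP1 was the AopACT genotype in which gut Cth was not called, and its response was not tested against those of the other AopACT genotypes. Its gut Cth levels were 71.9, 75.3 and 81.6 CPM uninduced and 91.1 and 117 CPM induced. The groups did not overlap, as for 11.8% of all genes in this comparison with induction higher, but the difference of 0.46 ± 0.34 (interval -0.23 to 1.15) did not pass the test (edgeR adjusted p = 0.932, with 0.787% of genes called). The induced aop level was lowest in this genotype too, at 61.4 and 53.0 CPM, against 99.4 and 94.9 CPM in AopACT, 93.5 and 362 CPM in Foxo+AopACT, and 98.5, 62.8 and 216 CPM in Foxo+AopACT+PntP1. In Foxo+AopACT and Foxo+AopACT+PntP1 the library with the highest Cth also had the highest aop, which was not so in AopACT. Outside the AopACT genotypes, induced aop was at 101 to 161 CPM in Foxo+PntP1 guts and at 77.7 and 109 CPM in PntP1 guts. Cth was not called there, with differences of -0.08 and -0.31. Induced Foxo guts had 40.2 to 49.8 CPM of aop. The part of the aop level in the Cth response was not tested.

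The 3 highest Cth libraries were all of experimental block D (blocks A, C and D are those by which the study grouped its libraries). Within a block, induced Cth exceeded uninduced Cth in 9 of 9 AopACT pairs, by 1.21-fold to 5.68-fold with a median of 2.12-fold. The lowest AopACT pairs included those of AopACT+PntP1, at 1.21-fold and 1.43-fold. In the genotypes without AopACT induced Cth was the higher in 3 of 6 pairs, and these were the Foxo pairs (1.59-fold, 1.43-fold and 1.58-fold). In the PntP1 pairs (0.874 and 0.943) and the Foxo+PntP1 pair (0.953) it was the lower.

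Without AopACT, gut Cth was not called by edgeR in any genotype when all genotypes were fitted together. In Foxo guts it was at 138, 102 and 95.0 CPM uninduced and at 219, 146 and 150 CPM induced. The induced libraries lay above the uninduced ones, but the difference of 0.61 ± 0.30 did not pass (edgeR adjusted p = 1, with 0.507% of genes called and an unadjusted p of 0.0510). PntP1 guts had 127, 120 and 88.9 CPM uninduced and 111 and 83.9 CPM induced, and Foxo+PntP1 guts had 107 CPM uninduced and 106, 69.4 and 102 CPM induced. Those groups lay close together, with differences of -0.31 ± 0.34 and -0.08 ± 0.43 (edgeR adjusted p = 0.879 and 0.986). Of the 5 members tested, none was called in Foxo or Foxo+PntP1 guts by edgeR, DESeq2 or limma voom over all genotypes or at an unadjusted p under 0.05, while 1 was called by edgeR in Foxo guts fitted alone. In PntP1 guts edgeR and DESeq2 called none, limma voom called 1, and 1 (Sam-S) had an unadjusted p under 0.05, where 3.04% of all genes were called in PntP1 and 2.79% in Foxo+PntP1.

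**Figure D2:**
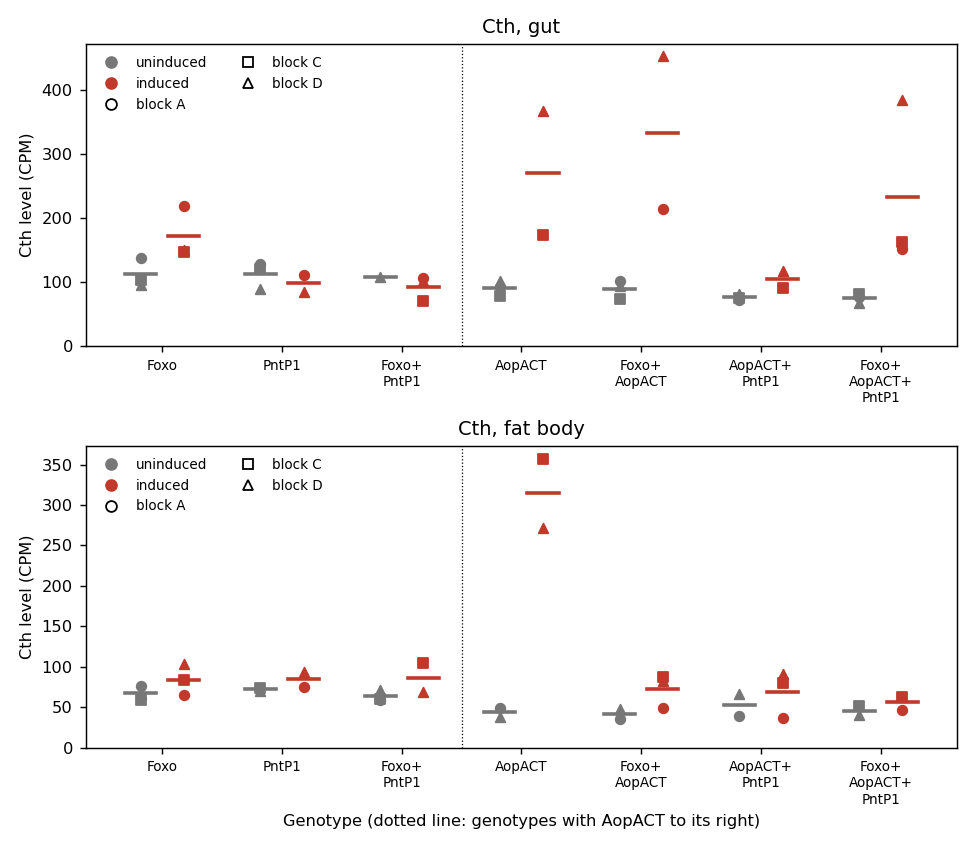
Cth level in CPM (linear axis from 0) in each library, by genotype, for gut (36 libraries) and fat body (34 libraries), with colours for induction, marker shapes for the block and lines at the group means. In the gut the induced libraries of AopACT, Foxo+AopACT and Foxo+AopACT+PntP1 lie between 151 and 452 CPM, above all uninduced libraries (67.6 to 138 CPM), as do those of Foxo (146 to 219 CPM), and in the fat body only the AopACT genotype stands apart, at 272 and 357 CPM.

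Averaged over the 4 AopACT genotypes, the gut Cth response was 1.35 ± 0.17 on the log2 scale (interval 1.01 to 1.69, 2.55-fold, edgeR adjusted p = 5.37e-06), and Cth was the only member of 5 called, where 6.6% of all genes were called. It stayed called with each of the 36 libraries left out in turn, with values of 1.21 to 1.51. Averaged over the 3 genotypes without AopACT the response was 0.07 ± 0.21 (interval -0.36 to 0.50, edgeR adjusted p = 0.968, with 5.92% of genes called). No member was called there by edgeR, DESeq2 or limma voom, or had an unadjusted p under 0.05. Uninduced gut Cth was lower with AopACT (67.6 to 101 CPM, mean 82.8, n = 12 libraries) than without it (88.9 to 138 CPM, mean 111, n = 7). Induced gut Cth had means of 235 CPM with AopACT and 123 CPM without it. How far the lower uninduced level enters the difference in response was not tested.

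The difference between the responses with and without AopACT was tested by setting each AopACT genotype beside the genotype with the same other transgenes (Foxo+AopACT and Foxo, AopACT+PntP1 and PntP1, Foxo+AopACT+PntP1 and Foxo+PntP1). The Foxo+PntP1 response rested on 1 uninduced gut library. Neither the difference over the 3 pairs nor that among the 7 genotypes could be fitted without that library. Over the 3 pairs, adding AopACT raised the gut Cth response by 1.20 ± 0.28 (interval 0.62 to 1.78, edgeR adjusted p = 0.0369), and Cth was the 1 member called where 1.08% of genes were. The call did not hold without PntP1 induced replicate 2 (1.10, edgeR adjusted p = 0.134) or without Foxo+AopACT induced replicate 2 (1.02, edgeR adjusted p = 0.102). The 7 responses of gut Cth also differed among themselves (genotype by induction interaction, edgeR adjusted p = 0.0348, with 2.45% of genes called), except without PntP1 induced replicate 2, when the adjusted p was 0.155.

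In the fat body, Cth rose in the AopACT genotype and passed in no other. AopACT fat bodies had 49.3 and 37.8 CPM of Cth uninduced and 357 and 272 CPM induced. Both induced libraries were far above every other fat body library, the next highest being at 104 CPM. The log2 difference was 2.60 ± 0.34 (interval 1.89 to 3.30, 6.05-fold, edgeR adjusted p = 6.16e-04, with 0.411% of the 9734 genes tested called), and it was called with each of the 4 libraries left out, at 2.20 to 3.03.

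The other 6 genotypes had fat body Cth differences between 0.29 and 0.70, with the top value in Foxo+AopACT. There the libraries held 35.5 and 47.6 CPM uninduced and 48.6, 87.0 and 82.3 CPM induced, and the difference of 0.70 ± 0.29 did not pass (edgeR adjusted p = 1, unadjusted p = 0.0265, with 0.0308% of genes called). In AopACT+PntP1 the levels were 39.6 and 65.8 CPM uninduced and 36.5, 79.6 and 90.6 CPM induced, and these overlapped. In Foxo+AopACT+PntP1 they were 51.4 and 39.9 CPM uninduced and 46.1, 61.9 and 62.0 CPM induced, which also overlapped.

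Summed ovary markers moved with the AopACT fat body comparison. They were at 679 and 19.5 CPM in the uninduced AopACT libraries and at 1750 and 2116 CPM in the induced ones, over 5 of the 6 listed genes (nos was not analysed here), and 0 of the 5 were called. Summed enterocyte markers were at 33.9 and 40.6 CPM uninduced and at 35.9 and 144 CPM induced, and 0 of the 4 tested were called. Over all 34 fat body libraries Cth varied with the ovary sum at r = 0.30 and with the enterocyte sum at r = 0.04, given as a description. The part of these cell types in the Cth response was not tested.

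Averaged over the AopACT genotypes, the fat body Cth response was 1.01 ± 0.15 (interval 0.69 to 1.33, edgeR adjusted p = 0.00183), 1 of 2 members called where 0.277% of genes were called, and it carried the large AopACT value with 3 small ones. Without AopACT it was 0.34 ± 0.16 (edgeR adjusted p = 0.674). Uninduced fat body Cth was lower with AopACT too (35.5 to 65.8 CPM, mean 45.9) than without it (58.5 to 76.3 CPM, mean 66.9, n = 8 each). Adding AopACT to the 3 matched genotypes, which leaves out the AopACT genotype itself, changed the response by 0.14 (interval -0.35 to 0.62, edgeR adjusted p = 0.794). The interaction over the 7 genotypes gave an edgeR adjusted p of 0.157, and 4.79e-04 by DESeq2 and 0.0882 by limma voom, with 0.113% of genes called by edgeR.

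The mean AopACT response of Cth did not differ between tissues by the test. The gut response exceeded the fat body response by 0.23 ± 0.25 (interval -0.27 to 0.73, edgeR adjusted p = 1, with 0.247% of 9721 genes called). Of the 6 members none was called by edgeR or limma voom, DESeq2 called 1 (Sam-S, -0.57 by edgeR, edgeR adjusted p = 0.445, DESeq2 adjusted p = 0.0858), and 1 had an unadjusted p under 0.05. The interval for Cth does not show that the responses were alike.

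**Figure D3:**
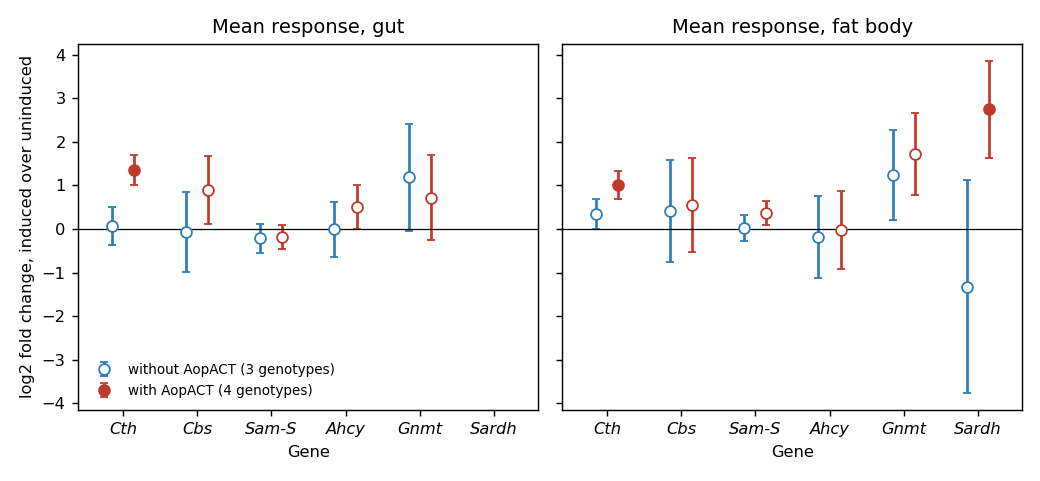
Mean log2 response to induction of each member over the 4 AopACT genotypes and over the 3 genotypes without AopACT, in gut and fat body, with 95% confidence intervals as bars and filled points for responses called by edgeR. Cth is called with AopACT in both tissues (1.35 and 1.01) and Sardh in the fat body (2.75), while no member is called without AopACT, where Sardh had 0 to 2 counts a library. Sardh was not tested in the gut.

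Sardh was low in most fat body libraries, and its highest levels were in induced AopACT libraries. AopACT fat bodies had 0 and 9.95 CPM uninduced and 29.4 and 61.7 CPM induced, the highest of all libraries. Foxo+AopACT had 4.77 and 0.322 CPM uninduced and 6.36, 19.0 and 7.09 CPM induced. AopACT+PntP1 had 0.739 and 0.208 CPM uninduced and 9.68, 7.62 and 12.5 CPM induced. In all 3 genotypes the induced libraries were above the uninduced ones, as for 15.2%, 6.27% and 17.3% of all genes.

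Foxo+AopACT+PntP1 was the mildest case, with 0.871 and 1.96 CPM uninduced and 5.74, 2.01 and 3.80 CPM induced and no overlap either (8.25% of all genes). In the 15 fat body libraries of genotypes without AopACT, Sardh had 0 to 2 counts, or 0 to 0.848 CPM, and 6 of them were at 0. All 11 induced AopACT libraries (2.01 to 61.7 CPM) were thus above all 7 induced libraries without AopACT (0 to 0.718 CPM). Of the 9734 genes tested, 5 (0.0514%) had induced libraries that lay apart this way: CR40801, Obp99b, Sardh, rha and tobi. Since Sardh passed the filter through libraries with AopACT only, this separation is a description and supports nothing further. In the gut 10 genes did (0.108%), and no member was among them.

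The mean Sardh response over the AopACT genotypes was 2.75 ± 0.54 (interval 1.64 to 3.86, 6.73-fold, edgeR adjusted p = 0.0229, and 0.0236 with no filter), and induced exceeded uninduced Sardh in 7 of 7 pairs within a block. The call did not hold without AopACT induced replicate 3 (2.65, edgeR adjusted p = 0.117) or AopACT+PntP1 uninduced replicate 2 (2.63, edgeR adjusted p = 0.101). Without AopACT uninduced replicate 2, the library at 9.95 CPM, the response was 4.61. By single genotype the log2 differences were 3.24 ± 1.04 in AopACT, 2.13 ± 1.03 in Foxo+AopACT, 4.21 ± 1.12 in AopACT+PntP1 and 1.42 ± 1.12 in Foxo+AopACT+PntP1. None passed over all genes in edgeR (adjusted p = 0.375, 1, 0.133 and 1), with 0.123% of genes called in AopACT+PntP1 and 0.0103% in Foxo+AopACT+PntP1. Adding AopACT to matched genotypes gave 3.91 ± 1.55 (edgeR adjusted p = 0.265, with 0.0308% of genes called), a value that depends on the prior count, since both induced PntP1 libraries were at 0 counts.

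**Figure D4:**
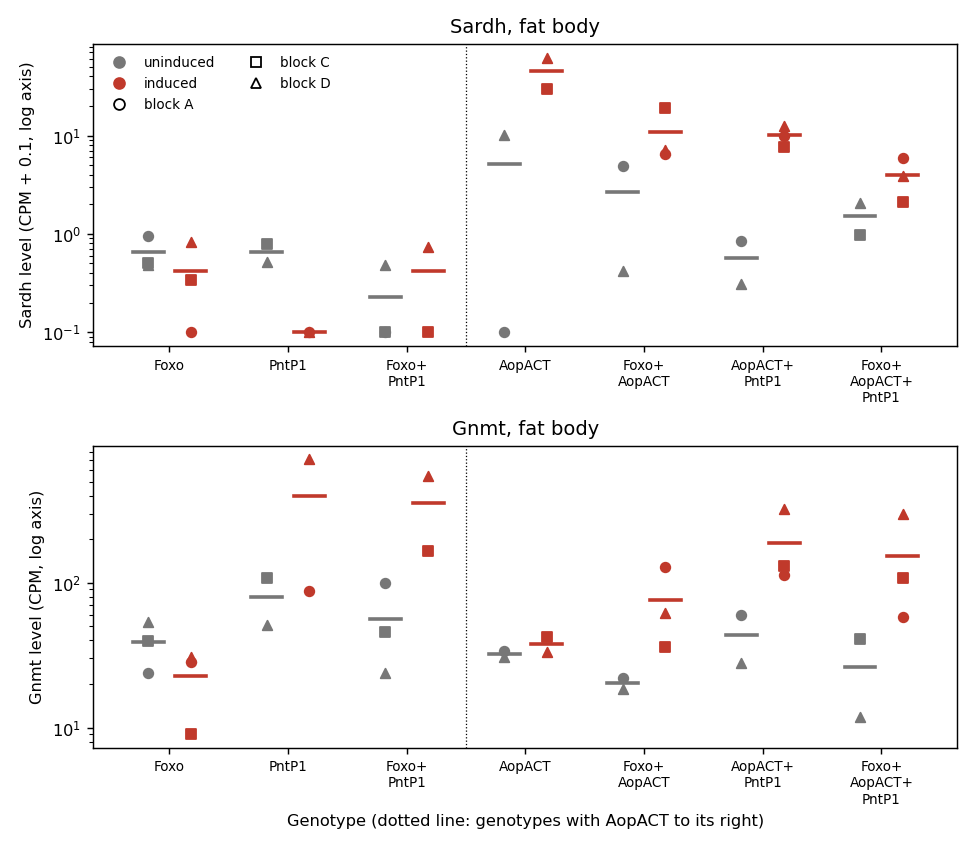
Sardh (CPM + 0.1) and Gnmt (CPM) levels on log axes in each of the 34 fat body libraries, by genotype, with colours for induction, marker shapes for the block and lines at the group means. Induced AopACT libraries have 2.01 to 61.7 CPM of Sardh and induced libraries without AopACT at most 0.718 CPM, whereas the highest Gnmt levels (712 and 546 CPM) are in induced PntP1 and Foxo+PntP1 libraries.

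Gnmt, which makes the substrate of Sardh, ranged from 9.05 to 712 CPM over 34 fat body libraries. In the fit of all fat body genotypes without the gut, edgeR called it in none of the comparisons. PntP1 fat bodies had 108 and 51.1 CPM uninduced and 87.1 and 712 CPM induced. Foxo+PntP1 had 99.1, 45.5 and 24.0 CPM uninduced and 166 and 546 CPM induced. In both, the induced library of block D was several times the other one, and the uninduced library at 99.1 CPM was the one with high pnt. The Foxo+PntP1 difference of Gnmt was 2.59 ± 0.85 (edgeR adjusted p = 0.833), and 3.21 without that library (edgeR adjusted p = 0.756). AopACT+PntP1 had 60.0 and 27.8 CPM uninduced and 113, 130 and 326 CPM induced, and Foxo+AopACT+PntP1 had 40.9 and 11.7 CPM uninduced and 58.1, 107 and 298 CPM induced, again with block D on top.

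In the genotypes without PntP1 the induced Gnmt levels ran from 9.05 to 129 CPM. The Foxo+AopACT library at 129 CPM lay above the median of all induced fat body libraries (97.1 CPM). The Gnmt differences were 1.98 ± 0.89 in Foxo+AopACT, 0.43 ± 0.96 in AopACT and -0.88 ± 0.77 in Foxo, against 2.01 ± 0.96 in PntP1. AopACT had 33.9 and 30.6 CPM uninduced and 42.4 and 33.4 CPM induced, Foxo+AopACT had 22.0 and 18.3 CPM uninduced and 129, 36.0 and 61.8 CPM induced, and the libraries labelled Foxo had 23.7, 39.8 and 53.5 CPM uninduced and 28.2, 9.05 and 30.9 CPM induced. The mean Gnmt response was 1.73 ± 0.46 with AopACT (edgeR adjusted p = 0.208, DESeq2 adjusted p = 0.0102) and 1.24 ± 0.50 without it (edgeR adjusted p = 0.655). In the fit of both tissues together, with another estimate of the spread, the fat body value with AopACT was 1.71 ± 0.39 (edgeR adjusted p = 0.0271). These values carry the limit of the antisense gene: of all 9733 other genes tested, CG43630 had the fat body pattern most like that of Gnmt (r = 0.92 over 34 libraries).

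Sam-S, the entry to the cycle, was the most abundant member of the fat body and, with Cth, of the gut. In AopACT fat bodies it was at 785 and 606 CPM uninduced and at 1359 and 937 CPM induced, and in Foxo+AopACT fat bodies at 606 and 675 CPM uninduced and 1036, 851 and 1069.6 CPM induced. In both genotypes the induced libraries were above the uninduced ones, as for 15.2% and 6.27% of all genes. The differences of 0.73 ± 0.28 and 0.63 ± 0.25 did not pass (edgeR adjusted p = 0.676 and 1). The mean AopACT response was 0.37 ± 0.13 in the fat body (interval 0.10 to 0.63, edgeR adjusted p = 0.629) and -0.18 ± 0.13 in the gut (interval -0.45 to 0.08, edgeR adjusted p = 0.490). Without AopACT the values were 0.02 in the fat body and -0.21 in the gut (edgeR adjusted p = 0.982 and 0.705).

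Ahcy and Cbs, the enzymes on either side of homocysteine, were called in no induction comparison by edgeR with all genotypes of a tissue fitted together. Gut Cbs had a median of 10.0 CPM in uninduced libraries (1.84 to 25.0 CPM) and 15.3 CPM in induced ones (3.88 to 24.9 CPM), so the groups overlapped widely. Its mean AopACT response was 0.90 ± 0.38 (edgeR adjusted p = 0.217, limma voom adjusted p = 0.0622), against -0.07 ± 0.44 without AopACT. Gut Ahcy had a median of 21.5 CPM uninduced (10.1 to 36.4 CPM) and 26.9 CPM induced (6.46 to 40.4 CPM), with a mean AopACT response of 0.50 ± 0.25 (edgeR adjusted p = 0.314).

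In the fat body, Cbs ranged from 1.02 to 32.9 CPM and Ahcy from 17.9 to 136 CPM. Their mean AopACT responses, 0.55 ± 0.52 and -0.02 ± 0.43, were no larger than about 1 standard error (edgeR adjusted p = 0.963 and 1). Cbs varied with the ovary markers over the 34 fat body libraries (r = 0.54, a description over libraries that share blocks and groups), while Ahcy did less (r = 0.11). Cbs also varied against the fat body markers (r = -0.54), the enteroendocrine markers (r = -0.43) and the oenocyte markers (r = -0.39). The part of other cell types in the level of Cbs was not tested.

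Over all genotypes of the fat body, few members were called: 0 of 6 by edgeR, DESeq2 and limma voom in Foxo, PntP1, Foxo+AopACT, Foxo+PntP1 and Foxo+AopACT+PntP1, with 0, 1, 3, 1 and 1 members at an unadjusted p under 0.05. The share of all genes called by edgeR was 0.0% in Foxo and Foxo+PntP1 and 0.0103% in PntP1. In AopACT+PntP1 edgeR and limma voom called 0, DESeq2 called 2, and 2 had an unadjusted p under 0.05. In the mean without AopACT all 3 tools called 0, and 1 (Gnmt) had an unadjusted p under 0.05, with 0.0205% of genes called.

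The members did not vary as 1 group. With block effects taken out, Cbs and Ahcy varied together (r = 0.85 over 36 gut and 0.72 over 34 fat body libraries, log2 CPM), and Cbs varied against Sam-S in the gut (r = -0.64). Cth followed Cbs weakly (r = 0.25 for gut, 0.19 for fat body libraries). These correlations are over libraries that share genotypes and blocks, and they are given as a description.

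Among all genes tested, the patterns most like gut Cth were those of Pdxk (r = 0.78), CG18547 (0.77) and GstE4 (0.76) over 36 libraries. For fat body Cth they were CG42259 (0.70), CG15772 (0.69) and CG7142 (0.63), and for Sardh they were Obp99b (0.86), tobi (0.86) and rha (0.82), over 34 libraries. Cbs was most like Rpn13 (0.91), asRNA:CR45831 (0.90) and CCT3 (0.90) in the gut and like Nop60B (0.91), yl (0.90) and fs(1)Ya (0.89) in the fat body. Ahcy was most like RpLP0 (0.89), CCT8 (0.88) and Got2 (0.88) in the gut and alphaTub84B (0.95), SerRS (0.94) and Phb1 (0.93) in the fat body. Sam-S was most like mod (0.88), pths (0.85) and RIOK2 (0.84) in the gut and HmgZ (0.75), Zip99C (0.75) and CG8665 (0.75) in the fat body. Gnmt was most like CG10916 (0.56), CG18530 (0.55) and 140up (0.55) in the gut and, after CG43630, like edl and CG3091 (both 0.82) in the fat body.

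Genes around the cycle were read from 5 lists of 30 genes: methionine supply and homocysteine, polyamine and methionine salvage, cysteine use and glutathione synthesis, sulphide and sulphite oxidation, and serine and folate one-carbon enzymes. Of 25 tested in the gut, 3 were called higher and 1 lower in the mean over AopACT genotypes (median -0.06, against -0.02 over all genes), and 3 higher and 1 lower without AopACT (median 0.04, against 0.03). Of all genes, 2.64% were called higher and 3.96% lower with AopACT, and 2.58% and 3.34% without. All called higher belonged to serine synthesis or folate metabolism. CG11899 (phosphoserine aminotransferase) rose by 0.84 ± 0.12 with AopACT and 1.52 ± 0.16 without (edgeR adjusted p = 4.92e-05 and 5.60e-07). For aay (phosphoserine phosphatase) the means were 0.74 ± 0.16 and 0.64 ± 0.21 (edgeR adjusted p = 0.00498 and 0.0825). The aay mean without AopACT joined opposite responses. It was 3.44 ± 0.32 in Foxo, -0.06 ± 0.42 in Foxo+PntP1 and -1.46 ± 0.35 in PntP1, where aay was called lower (edgeR adjusted p = 0.0179). Adi1, an enzyme of methionine salvage, was lower in both (-0.77 and -0.75, edgeR adjusted p = 0.0158 and 0.0727).

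The serine genes were called in some genotypes together with Cth and in others without it. In Foxo+AopACT guts aay rose by 1.69 ± 0.32 and in Foxo+AopACT+PntP1 guts it rose by 1.18 ± 0.29 (edgeR adjusted p = 0.00610 and 0.0474), where CG11899 was called higher as well (edgeR adjusted p = 1.12e-04). In AopACT guts, where Cth rose, aay and CG11899 had differences of 0.04 ± 0.33 and -0.07 ± 0.26 (edgeR adjusted p = 1 for each), and in Foxo guts, where Cth was not called, they rose by 3.44 ± 0.32 and 2.93 ± 0.23 (edgeR adjusted p = 1.82e-07 and 1.11e-08), as did Nmdmc, a mitochondrial folate enzyme, by 3.11 ± 0.58 (edgeR adjusted p = 0.00826). The difference in response between these genes and Cth was not tested. CG6287 (phosphoglycerate dehydrogenase), named after its values were seen, was the other gene called with AopACT, at 0.68 ± 0.23 (edgeR adjusted p = 0.0935), and had 0.24 ± 0.29 without it. Adding AopACT to matched genotypes gave no call for aay, CG11899, Nmdmc or Adi1 in the gut (edgeR adjusted p = 0.732, 0.668, 0.920 and 0.866).

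In the fat body, 1 of 28 tested genes of the 5 lists was called higher and 0 lower in the mean over AopACT genotypes (median 0.12, against -0.06 over all genes, of which 0.216% were called higher and 0.0616% lower). This was Nmdmc, at 1.38 ± 0.25 (edgeR adjusted p = 0.00948), and without AopACT it was at 0.42 ± 0.28 (edgeR adjusted p = 0.694). The difference between these sets of genotypes, 1.26 ± 0.39 over matched pairs, did not pass (edgeR adjusted p = 0.212).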

How the data were processed

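Polyadenylated RNA of guts and fat bodies from 7 genotypes was analysed from the deposited count tables, 1 per tissue. The authors took out duplicate reads by molecular identifier (Je), aligned the rest to genome release 6 (HISAT2) and deposited whole-number counts per gene (featureCounts) that were not normalised. The submitters' notes also list SAMtools. Of 73 labelled libraries, 70 have a column and 3 were not analysed here. These 3 were induced fat bodies of AopACT, PntP1 and Foxo+PntP1, groups that each kept 2 of 3 labelled libraries. The authors' variance-stabilised tables from DESeq2 were not used.

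Groups came from the sample labels, and blocks (A, C or D) from the tables. Identifiers were matched to symbols by the BDGP6 annotation for 10287 gut and 10982 fat body genes. Counts were fitted per tissue with edgeR 4.0.16 in R 4.3.3 (TMM, filterByExpr with a minimum count of 10, quasi-likelihood, 14 groups with the block), p-values were adjusted over all genes tested, and genes were called at an adjusted p under 0.1, the study's false discovery rate of 10%. The biological coefficient of variation was 0.313 for gut and 0.389 for fat body counts. Both tissues were fitted together for comparisons between them. CPM used effective library sizes, and RPKM the union of exons. Replicate pairs differed beyond sampling noise, with the lowest chi-square per degree of freedom at 11.3 (31 gut pairs) and 10.1 (26 fat body pairs). Labels do not say that replicates are independent cultures of flies, so p-values measure the spread between these pools. The fits were tested on simulated data.

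Alternatives were DESeq2 1.42.0, limma 3.58.1 voom with quality weights, RLE scaling, no filter, no block, each genotype alone, and leaving out libraries. The members and lists were chosen with earlier results of these data known. The text names all 6 members, list genes called in the mean responses or in AopACT (up to 3 a list, lowest p first), and the 3 genes most like each member by correlation of block-adjusted log2 CPM (prior count 2).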

Additional observations from a re-analysis of the deposited data

Results flagged for a closer look

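The response of Cth to induction in the gut differed among the 7 genotypes by a test of the difference itself (genotype by induction interaction, edgeR adjusted p = 0.0348). The gut Cth response also differed between genotypes with AopACT and those with the same other transgenes without it, by 1.20 on the log2 scale (edgeR adjusted p = 0.0369). Of the induced gut libraries of the 3 AopACT genotypes in these pairs, those of AopACT+PntP1 (91.1 and 117 CPM) lay within the range of the induced libraries without AopACT (69.4 to 219 CPM), while 2 of 5 libraries of the other genotypes lay above it. Both calls depended on single libraries. Neither held without PntP1 induced replicate 2, and the call over matched genotypes did not hold without Foxo+AopACT induced replicate 2.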

How the results depend on the processing

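For members called in a comparison, 98 values under other settings kept direction and call and 4 kept direction only. With limma voom, gut Cth in AopACT was 1.52 (adjusted p = 0.127). With each genotype fitted alone, which leaves few residual degrees of freedom, Cth was 1.50 in AopACT and 1.53 in Foxo+AopACT+PntP1 guts and 2.84 in AopACT fat bodies (edgeR adjusted p = 0.281, 0.131 and 0.421). With libraries left out in turn, 183 values kept the call and 11 lost it, and none reversed. Cth ran from 1.15 to 1.92 in AopACT, 1.16 to 2.31 in Foxo+AopACT and 1.09 to 1.84 in Foxo+AopACT+PntP1 guts, and from 1.02 to 1.42 for AopACT added to matched genotypes. The adjusted p of the interaction ran from 0.00949 to 0.155, and Sardh in the fat body from 2.52 to 4.61.

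The number of members called in the gut was 1 in Foxo fitted alone, 0 in AopACT by voom and fitted alone, 1 in PntP1 by voom, 2 in Foxo+AopACT by voom and 3 fitted alone, 0 in Foxo+AopACT+PntP1 fitted alone, and 2 in the mean over AopACT genotypes by voom. In the fat body it was 2 in AopACT by voom and 0 fitted alone, 2 in AopACT+PntP1 by DESeq2, 3 in the mean over AopACT genotypes by DESeq2, 1 in Foxo+AopACT+PntP1 fitted alone, and 1 in the interaction by DESeq2 and by voom. DESeq2 also called 1 in the difference between tissues. With libraries left out the numbers ran from 0 to 1, or from 1 to 2 in the means over AopACT genotypes. The cause of these changes was not tested, apart from the fewer samples of fits of 1 genotype. With the longest transcript as its length, Sam-S was at 90.6 RPKM in uninduced gut and 305 RPKM in uninduced fat body.

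Without the replicate block the mean AopACT response of Cth was 1.39 for gut and 1.09 for fat body libraries, that of Sardh 2.68, and the block changed no call of a member. Pairing uninduced gut and fat body by library number (13 pairs) gave 1.14 for Cth. With 2 or 3 libraries a group, 1 library often set the size of a response, and Sardh at 0 to 2 counts in libraries without AopACT limits any ratio for it. Intervals cover the spread between these libraries only.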

Other observations

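In fat body libraries that were not induced, Sardh was not equally low in all genotypes. The uninduced libraries with AopACT had 0 to 9.95 CPM (median 0.805 CPM, n = 8), and 2 of them, from AopACT and Foxo+AopACT flies, were at 9.95 and 4.77 CPM. The uninduced libraries without AopACT had 0 to 0.848 CPM (median 0.397 CPM, n = 8). Sardh was at 25 counts in the highest of these uninduced libraries and at 2 counts at most in those without AopACT, and the groups overlapped.

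Gnmt and Sardh, which act in sequence, did not vary together over the 34 fat body libraries (r = 0.03 of block-adjusted log2 CPM). The libraries of AopACT flies with the highest Sardh (29.4 and 61.7 CPM) had 42.4 and 33.4 CPM of Gnmt, and the PntP1 library with the highest Gnmt (712 CPM) had Sardh at 0 counts. Cth and Sam-S varied together in the fat body (r = 0.48) but not in the gut (r = 0.06).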
